A study of Mus musculus with 12 samples.

Results

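Zbp1, Ripk1, Ripk3, Mlkl, Casp8, Casp1, Casp4, Gsdmd and Aim2 encode core proteins of necroptosis and pyroptosis, and their mRNA was followed in the ileum of mice given zinc sulfate (ZnSO4), the synthetic glucocorticoid dexamethasone (Dex) or both. The genes were chosen by symbol, with earlier results of these data known, and all 9 were found among the 54838 genes of the deposited count table. The study's methods describe the animals as adult females. Wild-type C57BL/6J mice drank normal water or water with 25 mM ZnSO4 for 7 days. Then they received 200 µg Dex in PBS or PBS alone, and the ileum was taken 2 h later. This gave 4 groups of 3 mice, named water + PBS, water + Dex, ZnSO4 + PBS and ZnSO4 + Dex. The groups share their genotype and an injection of PBS, and none received TNF, so the values describe the tissue before any challenge. The labels number the mice of each group 1 to 3 and do not say whether they shared cages.

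Necroptosis is a lytic form of cell death. Zbp1, a sensor of nucleic acids with the Z conformation, and Ripk1, a kinase recruited by TNF receptor signalling, both engage the kinase Ripk3 through shared interaction motifs. Ripk3 phosphorylates the pseudokinase Mlkl, which then permeabilises the plasma membrane. The protease Casp8 cleaves Ripk1 and Ripk3 and so holds necroptosis in check, while it also starts apoptosis. In pyroptosis, inflammasomes activate Casp1, and Aim2 forms one of them upon binding cytosolic DNA. Casp4 responds to bacterial lipopolysaccharide inside the cell. Casp1 and Casp4 both cleave Gsdmd, whose N-terminal part forms the pores. In the gut the epithelium carries much of this machinery, and several of these genes are known to be induced by interferons.

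Each library held between 10760132 and 11827487 counted reads, with a median of 11388606. Total RNA of whole ileum was used, so fewer cells of a type and less RNA per cell cannot be told apart. The treatments were visible in their known targets. Mt1, a metallothionein induced by zinc, had an LFC (log2 fold change) of 4.79 with ZnSO4, and Slc39a4, a zinc importer, one of -2.95. Fkbp5 and Tsc22d3, both induced by glucocorticoids, had LFCs of 3.34 and 3.10 with Dex in water mice. The ileal enterocyte markers Fabp6 and Slc10a2 together reached 4588 to 9299 CPM (counts scaled to library size) over the 12 libraries, so the labelled tissue showed its defining genes. The summed level of 5 enterocyte markers was 6294 CPM in ZnSO4 + Dex mouse 2 and lay between 9092 and 15416 CPM in the other libraries. The 5 T cell markers summed to 54.5 to 91.4 CPM in water + PBS, 52.5 to 71.1 in water + Dex, 25.8 to 50.8 in ZnSO4 + PBS and 23.8 to 27.3 in ZnSO4 + Dex mice, and none of the 5 was at 0 in all libraries. Of these markers, 1 fell with ZnSO4 in PBS mice and 3 fell in Dex mice. The 5 goblet cell markers summed to 8942 to 9359 CPM in water + PBS and 10163 to 10803 in water + Dex mice. In ZnSO4 + PBS mice they summed to 9952 to 11938 CPM, and in ZnSO4 + Dex mice to 11582 to 13110.3. Of the goblet cell markers, 1 rose with ZnSO4 in PBS mice and 1 in Dex mice. The B cell markers differed 46.0-fold between the highest and the lowest library, without any of them passing the test in a comparison. Neutrophil markers were near 0 throughout, at 0.167 to 3.53 CPM.

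Promoter windows from RefSeq on GRCm38.p6 were searched for 7 of the 9 genes, with 9 windows in all. Zbp1 and Gsdmd were not searched. Each window ran from 250 bases before to 50 bases after a RefSeq transcript start. Such a start can lie well inside the gene, as for Aim2 (window chr1:173420354-173420653) and Casp8 (window chr1:58802252-58802551). They were searched on both strands for 4 motifs that belong to the factors behind these treatments or to interferon signalling. These were the core of the interferon-stimulated response element (ISRE, GAAANNGAAA), the gamma-activated site (GAS, TTCNNNGAA), the core of the glucocorticoid receptor palindrome (ACANNNTGT) and the metal response element (TGCGCNC or TGCACNC). Among the 32851 promoter windows of the reference, 3.44% held the ISRE core, 8.3% the GAS, 6.85% the receptor core and 25.7% the metal response element. Of the 9 windows, only the 2 of Ripk1 held any match. In all, 4 stretches from 120 bases before to 10 bases after the start are shown, with matches in capitals. They are those of Ripk1 (a gene that passed in no comparison, chr13:34002754-34002883, plus strand), of Ripk3 (the kinase that fell with ZnSO4, chr14:55788848-55788977, minus strand), and of the neighbours Casp1 (chr9:5298397-5298526, plus strand) and Casp4 (chr9:5308729-5308858, plus strand), which both fell with Dex in ZnSO4 mice.
Ripk1, start 2: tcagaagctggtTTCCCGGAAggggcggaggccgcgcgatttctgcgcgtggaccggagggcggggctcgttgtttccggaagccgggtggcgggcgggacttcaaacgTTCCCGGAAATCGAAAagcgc
Ripk3: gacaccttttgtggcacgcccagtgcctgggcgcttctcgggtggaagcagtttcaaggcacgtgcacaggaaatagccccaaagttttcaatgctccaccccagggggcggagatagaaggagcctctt
Casp1: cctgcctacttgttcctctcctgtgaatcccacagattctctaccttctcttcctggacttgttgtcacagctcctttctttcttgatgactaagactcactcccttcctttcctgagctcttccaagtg
Casp4, start 1: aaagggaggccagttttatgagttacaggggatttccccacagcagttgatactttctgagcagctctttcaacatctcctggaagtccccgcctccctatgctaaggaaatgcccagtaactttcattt
In the Ripk1 stretch, the GAS matched at -108 and at -11, and the ISRE core at -5, where it shares bases with the second GAS. The other Ripk1 window held a metal response element at -30. A match is a run of letters and not a measured binding site, and a window without one says nothing about the factor.

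All 9 genes passed the filter on low counts, the lowest count of any of them in a library being 96 reads (Mlkl). To compare levels between genes, counts were divided by the length of the exons, as RPKM (the reads of a gene scaled to library size and to 1 kb of exon). On this scale Casp1 was highest in water + PBS mice at 128 ± 5.13 (SD, n = 3), followed by Gsdmd at 91.9 ± 7.66 and Casp8 at 77.4 ± 0.943. Zbp1 (21.2 ± 5.60), Casp4 (19.0 ± 0.964) and Ripk3 (18.8 ± 2.86) came next, and these 3 did not differ beyond their spread. Ripk1 had a level of 9.60 ± 0.710, Mlkl of 7.21 ± 0.837 and Aim2 of 4.46 ± 1.07, and the 3 mice did not overlap between neighbours in this lower part of the order. By RPKM, Casp1, Gsdmd and Casp8 were thus at several times the level of the kinases Ripk3 and Ripk1. The order depends on the merged exon length, which was 8344 bases for Ripk1, 2292 for Ripk3 and 1497 for Casp1. In counts scaled to library size only, Ripk1 (912) lay above Zbp1 (851), Casp4 (802) and Ripk3 (490.3) in water + PBS mice. Casp8 (2549) and Gsdmd (2487) lay above Casp1 (2187) there.
Apart from Zbp1, the genes moved by at most 2 RPKM ranks between groups. Zbp1 held rank 4 in water + PBS and water + Dex mice, and rank 8 in both ZnSO4 groups. At 4.22 ± 0.604 in ZnSO4 + PBS mice it overlapped with Mlkl (4.95) and Aim2 (4.11). Casp8 and Gsdmd, which were apart in water + PBS mice, overlapped in ZnSO4 + Dex mice at 49.9 and 46.1.

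**Figure D1:**
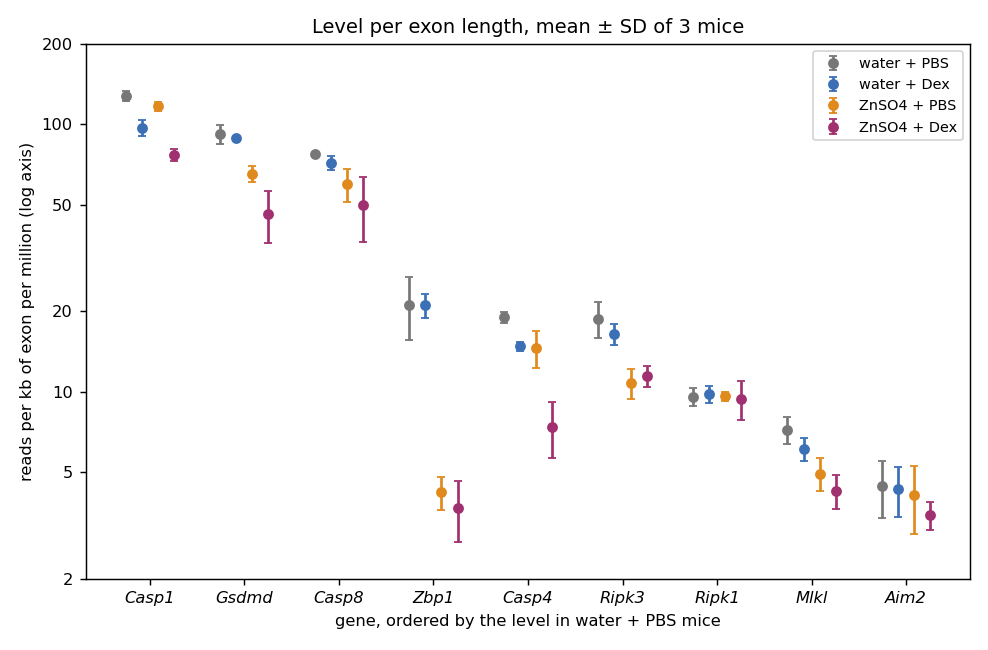
Level of each gene per exon length (RPKM, log axis), with points for the mean and bars for the SD of 3 mice in the 4 groups, in the order of the level in water + PBS mice. Zbp1 drops from 21.2 to 4.22 with ZnSO4, from rank 4 to rank 8, while Casp1 stays on top of the order at 77.1 or more.

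The first comparison asked what 7 days of ZnSO4 did in mice without Dex. Zbp1 fell 5.02-fold and Ripk3 fell 1.74-fold, whereas Ripk1, the other kinase of the same complex, had overlapping groups. None of the 9 genes rose. Differential expression was tested over the 15938 genes that passed the filter with edgeR's quasi-likelihood test, and a gene passed the test at a Benjamini-Hochberg adjusted p under 0.05. Values per mouse are given as normalised counts, which are counts scaled to a common library size of 11377723 reads, and each LFC is followed by its standard error (SE).

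Zbp1 (chr2:173206612-173218923, minus strand, GRCm38) had 979, 982 and 591 normalised counts in water + PBS mice 1 to 3, and 146, 167 and 195 in ZnSO4 + PBS mice. The highest ZnSO4 mouse lay below the lowest water mouse by a wide margin. The LFC was -2.33 ± 0.22 (SE, adjusted p = 2.6e-04), which left 19.9% of the level in water mice. Under every alternative setting and with any library left out the fall passed the test, also with the T cell markers as a covariate (LFC -2.29, adjusted p = 0.0022) or with the enterocyte markers (LFC -2.16, adjusted p = 6.1e-04).
Ripk3 (chr14:55784995-55788865, minus strand) had 554, 508 and 409 normalised counts in water + PBS and 243, 315 and 287 in ZnSO4 + PBS mice. Again the groups did not overlap, with an LFC of -0.80 ± 0.13 (adjusted p = 0.0075). With the T cell markers as a covariate it was -0.74 (adjusted p = 0.042).
Ripk1 (chr13:34002363-34037147, plus strand) stood at 944, 957 and 834 normalised counts in water + PBS and 954, 890.5 and 899 in ZnSO4 + PBS mice. The groups overlapped, and the 95% interval of the LFC ran from -0.24 to 0.25. Of the exon bases of Ripk1, 6.12% overlap the gene Gm17084 on the same strand, so a small part of its reads could have been left out or assigned elsewhere.

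Mlkl and the pyroptosis genes had lower means with ZnSO4, without passing the test. Mlkl (chr8:111311797-111338177, minus strand), the executor of necroptosis, had 211, 189 and 167 normalised counts in water + PBS and 123, 116 and 150.0 in ZnSO4 + PBS mice, with an LFC of -0.54 ± 0.15 (adjusted p = 0.062). Gsdmd (chr15:75862327-75867408, plus strand) had 2523, 2673 and 2263 against 1914, 1708 and 1683, with an LFC of -0.49 ± 0.13 (adjusted p = 0.06). In both genes the 2 groups did not overlap. How many of all tested genes were separated in this way was not counted, here or below. Separation alone is therefore not read as a change.
Casp8 (chr1:58795374-58847503, plus strand) had 2577, 2515 and 2553 normalised counts in water + PBS and 2287, 1772 and 1837 in ZnSO4 + PBS mice. Casp4 (chr9:5308828-5336783, plus strand) had 848, 785 and 772 against 552, 570.2 and 732. The LFC was -0.37 ± 0.17 for Casp8 (adjusted p = 0.25) and -0.38 ± 0.15 for Casp4 (adjusted p = 0.19). Of the 31-base stretches of Casp8, 8.36% also occur in other genes, and whether reads were lost there was not tested.
Both were lower in every ZnSO4 mouse. Their 95% intervals, -0.75 to -0.00 for Casp8 and -0.70 to -0.05 for Casp4, lay below 0 or reached it, but neither passed after adjustment over all genes. Casp1 (chr9:5298517-5307265, plus strand) was 2187 ± 87.4 in water + PBS and 1985 ± 78.7 in ZnSO4 + PBS mice (SD, n = 3), with an LFC of -0.14 (95% interval -0.30 to 0.02). Its groups did not overlap either, at 2109 to 2281 against 1918 to 2072. Aim2 (chr1:173350879-173466040, plus strand) ranged from 151 to 227 in water + PBS and from 133 to 218 in ZnSO4 + PBS mice, and the groups overlapped (LFC -0.11, 95% interval -0.62 to 0.39).

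In all, 2 of the 9 genes fell with ZnSO4, where 2.54% of all tested genes fell and 2.11% rose. As the 9 genes were chosen with earlier results of these data known, such shares do not test them as a set. With the study's additional cut-off of 0.8 on the LFC, Zbp1 alone was left, at a background of 0.954% of genes. The median LFC of the 9 genes was -0.38, and that of all tested genes -0.013. The count changed most without ZnSO4 + Dex mouse 2, a library of another group that entered the common estimate of the spread. Then 5 genes fell, the added ones being Mlkl (adjusted p = 0.043), Casp8 (0.04) and Gsdmd (0.008). In that fit 1001 of 16181 tested genes passed in either direction, against 742 of 15938 with all libraries. Without ZnSO4 + Dex mouse 3, and in a fit of only the groups compared, Gsdmd fell in addition (adjusted p = 0.032 and 0.039). With the B cell markers as a covariate Mlkl did (0.028), and with DESeq2 both did. Over all tested genes 703, 411, 733 and 1060 passed in these fits, in that order.

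**Figure D2:**
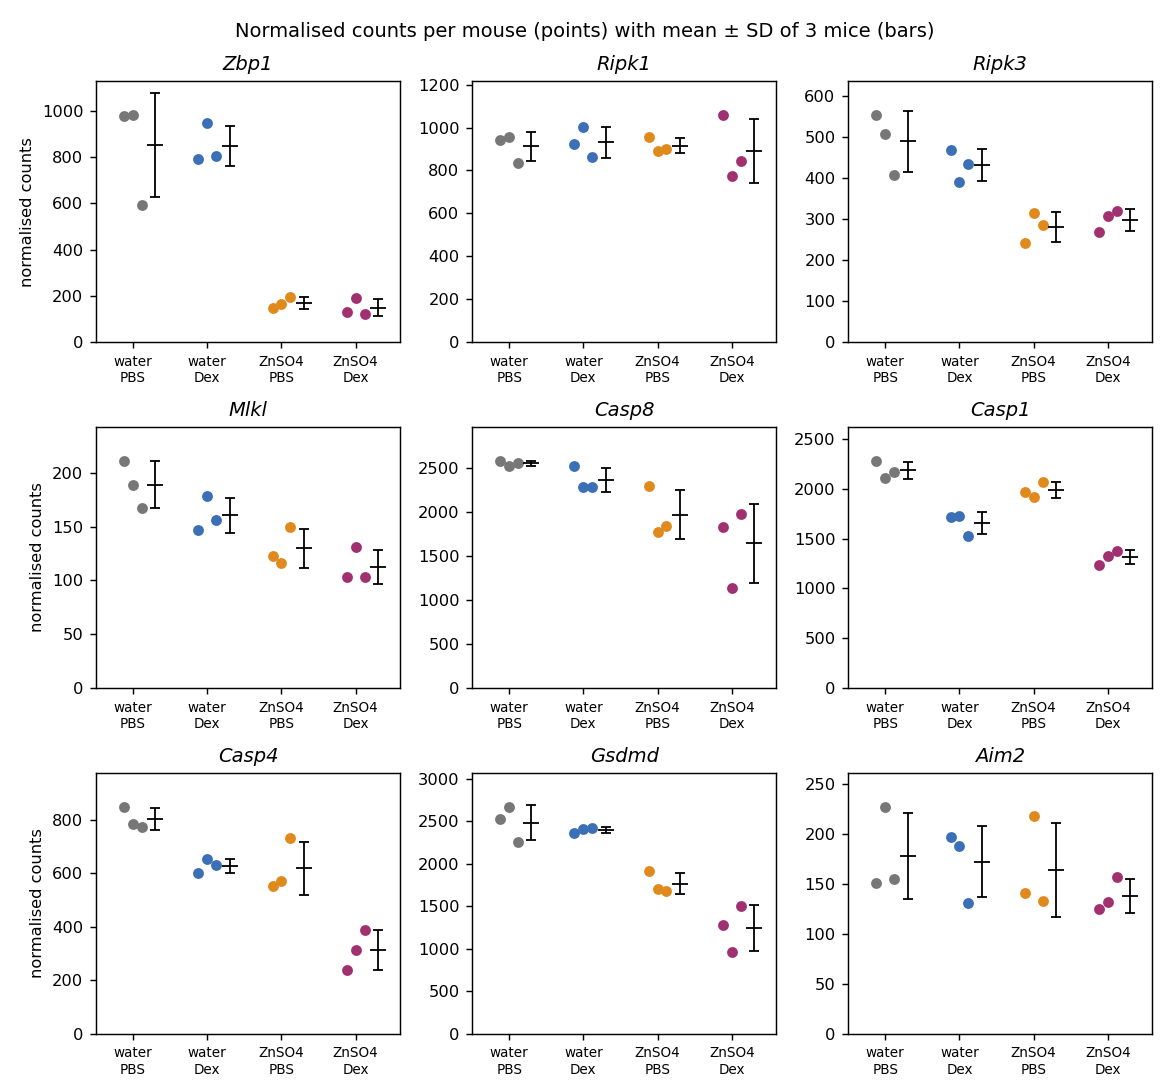
Normalised counts of the 9 genes (vertical axis, from 0) in each of the 12 mice (points, by group), with the mean and SD of 3 mice beside them. The ZnSO4 mice of both groups lie far below the water mice for Zbp1 (at most 195 against at least 591) and overlap with them for Ripk1 and Aim2.

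The second comparison asked what Dex did within 2 h in mice on normal water. Casp1 fell 1.32-fold and was the only gene of the 9 that passed the test. Zbp1, which fell most with ZnSO4, had 790.5, 947 and 805 normalised counts in water + Dex mice, which lay within the range of the water + PBS mice (95% interval of the LFC -0.45 to 0.44).
Casp1 had 2281, 2109 and 2169 normalised counts in water + PBS and 1716, 1723 and 1529 in water + Dex mice. No Dex mouse reached the lowest PBS mouse, and the LFC was -0.40 ± 0.07 (adjusted p = 0.0039). Its neighbour Casp4, whose gene begins 1562 bases after the end of Casp1 on the same strand, had 599, 651 and 630.0 in water + Dex mice and a similar LFC of -0.36 ± 0.15, which did not pass (adjusted p = 0.18). In a fit of only the groups compared Casp4 did pass (adjusted p = 0.018).
The kinase Ripk3 had 469, 391 and 434 normalised counts and the executor Mlkl 147, 178 and 156 in water + Dex mice. Both overlapped with the PBS mice, with LFCs of -0.18 and -0.24 (adjusted p = 0.46 and 0.38). For Gsdmd the 3 Dex mice were close together, from 2361 to 2426, and inside the range of the PBS mice (LFC -0.05, 95% interval -0.34 to 0.24). Casp8 (LFC -0.11), Ripk1 (0.03) and Aim2 (-0.04) had overlapping groups too.
So 1 of 9 genes fell, where 4.51% of all tested genes fell and 5.41% rose, and none passed the cut-off of 0.8, which 1.64% of genes passed downwards. The median LFC was -0.11 against -0.014 for all tested genes.

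The third comparison asked what ZnSO4 did in mice that also received Dex. Zbp1 fell 5.70-fold, and Casp4 and Gsdmd fell to 49.8% and 52.0% of their level in water + Dex mice. Ripk3 and Casp1 fell by smaller amounts, and Ripk1 again had overlapping groups.
Zbp1 had 132, 191 and 122 normalised counts in ZnSO4 + Dex mice, all far below the 790.5 to 947 of the water + Dex mice. The LFC was -2.51 ± 0.22 (adjusted p = 1.5e-04), and with the T cell markers as a covariate -2.46 (adjusted p = 0.0099).
Casp4 had 238, 311 and 386 normalised counts in ZnSO4 + Dex against 599, 651 and 630.0 in water + Dex mice. The groups were clearly apart, with an LFC of -1.01 ± 0.15 (adjusted p = 0.0043), and Casp4 passed under every alternative. Gsdmd had 1284, 957 and 1500.5 against 2361, 2411 and 2426, with an LFC of -0.94 ± 0.13 (adjusted p = 0.003).
The lowest Gsdmd value belonged to ZnSO4 + Dex mouse 2, the mouse with the fewest enterocyte transcripts, and without it the LFC was -0.79 (adjusted p = 0.0026). With the T cell markers as a covariate Gsdmd did not pass (LFC -0.88, adjusted p = 0.061).
Ripk3 had 269, 308 and 320.4 normalised counts against 469, 391 and 434, an LFC of -0.53 ± 0.13 (adjusted p = 0.048). Although the groups did not overlap, this call was close to the threshold and was lost when any 1 of 8 libraries was left out, with adjusted p up to 0.17. Casp1 had 1239, 1322 and 1379 against 1716, 1723 and 1529, with an LFC of -0.33 ± 0.07 (adjusted p = 0.023), and lost its call when water + Dex mouse 1 or 2 (both 0.11) or ZnSO4 + Dex mouse 1 (0.09) was left out.
Mlkl, with 103, 131 and 103 normalised counts in ZnSO4 + Dex mice, and Casp8, with 1823, 1129 and 1971, were below all water + Dex mice without passing the test (adjusted p = 0.082 and 0.11). The low Casp8 value was again that of mouse 2. Without it the LFC of Casp8 went from -0.53 to -0.32. For Ripk1 the 95% interval ran from -0.30 to 0.18, and for Aim2 from -0.83 to 0.19.

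Thus 5 of 9 genes fell, where 2.54% of all tested genes fell and 1.83% rose. The cut-off of 0.8 left 3, namely Zbp1, Casp4 and Gsdmd, at a background of 1.2%. The median LFC was -0.53 against 0.007 for all tested genes. The number fell to 3 without water + Dex mouse 1, water + Dex mouse 2 or ZnSO4 + Dex mouse 1, in each case by the loss of Ripk3 and Casp1, and to 2 (Zbp1 and Casp4) with the T cell markers as a covariate. These markers were themselves lower in ZnSO4 mice. Over all tested genes 696 passed in the main fit, in either direction. Without each of these 3 mice, in the order named, 327, 322 and 417 passed, and 286 with the T cell covariate.

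**Figure D3:**
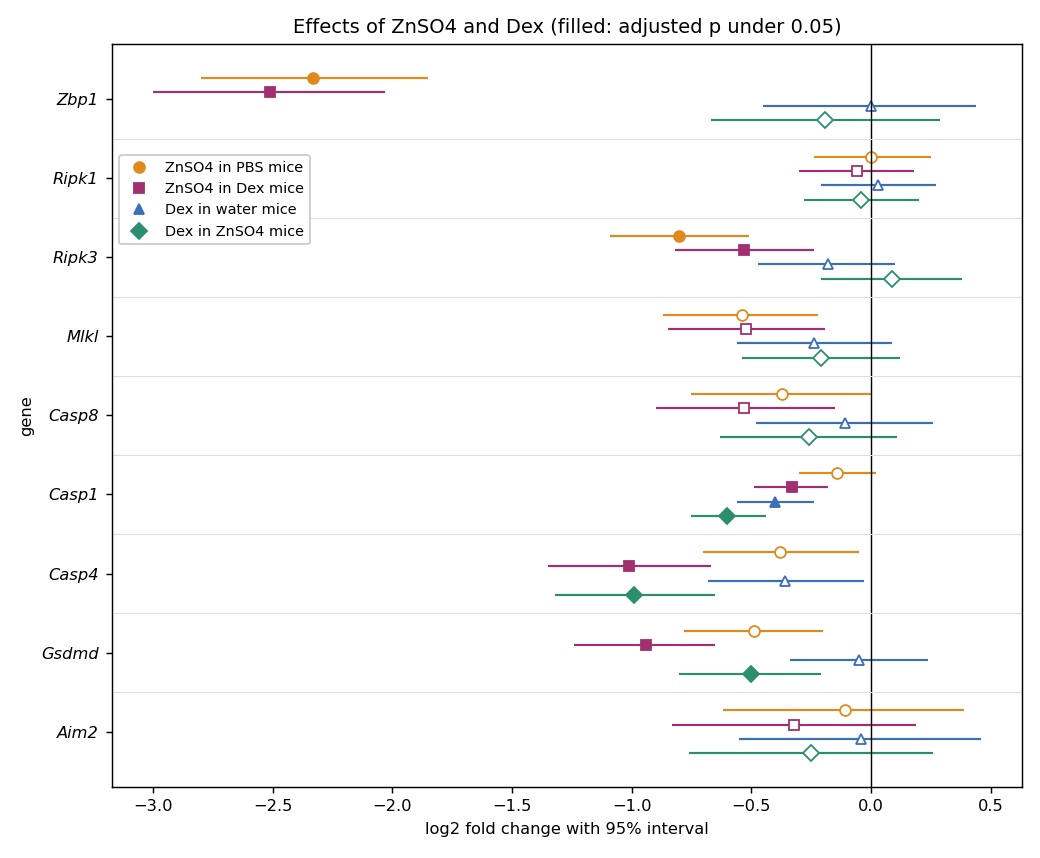
LFC (horizontal axis, log2) of the 9 genes for ZnSO4 in PBS and in Dex mice and for Dex in water and in ZnSO4 mice, with bars for the 95% interval and filled symbols for an adjusted p under 0.05. The ZnSO4 effects on Zbp1 (-2.33 and -2.51) stand apart from all others, and the Dex effects are filled for Casp1 in both drinking groups but for Casp4 and Gsdmd only in ZnSO4 mice.

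The fourth comparison asked what Dex did in mice on ZnSO4. All 3 genes that fell belong to pyroptosis. Casp1 went from 1966, 1918 and 2072 normalised counts in ZnSO4 + PBS mice to 1239, 1322 and 1379 in ZnSO4 + Dex mice. This was a clear gap between groups with little spread in either, and the LFC was -0.60 ± 0.07 (adjusted p = 2.2e-04).
Casp4 went from 552, 570.2 and 732 to 238, 311 and 386, with an LFC of -0.99 ± 0.15 (adjusted p = 0.0012). Gsdmd went from 1914, 1708 and 1683 to 1284, 957 and 1500.5, with an LFC of -0.50 ± 0.13 (adjusted p = 0.027). The call of Gsdmd was lost without ZnSO4 + Dex mouse 1 (adjusted p = 0.068), ZnSO4 + PBS mouse 1 (0.1) or ZnSO4 + PBS mouse 2 (0.054), with the T cell (0.11) or B cell markers (0.051) as a covariate and in a fit of only the groups compared (0.098).
The necroptosis genes had overlapping groups. Zbp1 had an LFC of -0.19 (95% interval -0.67 to 0.29), Ripk3 of 0.09 (-0.21 to 0.38), Mlkl of -0.21 (-0.54 to 0.12) and Ripk1 of -0.04 (-0.28 to 0.20). Casp8 (LFC -0.26) and Aim2 (-0.25) did not pass either. Dex thus moved 3 of 9 genes down in ZnSO4 mice, where it moved 7.08% of all tested genes down and 6.65% up. Casp4 alone passed the cut-off of 0.8, at a background of 2.4%, and the median LFC was -0.25 against 0.009.

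Mice with both treatments were then compared with mice that had neither. Relative to water + PBS mice, 7 of the 9 genes were lower, where 11.9% of all tested genes were lower and 11.5% higher. Ripk1 (LFC -0.03, 95% interval -0.27 to 0.21) and Aim2 (-0.36, -0.87 to 0.15) did not pass.
Zbp1 was at 17.4% of its level in water + PBS mice (LFC -2.52 ± 0.22, adjusted p = 1.7e-05), Casp4 at 38.9% (-1.36 ± 0.15, adjusted p = 9.8e-05) and Gsdmd at 50.1% (95% interval of the LFC -1.29 to -0.70, adjusted p = 3.2e-04). These 3 also passed the cut-off of 0.8, as 4.56% of genes did downwards. Mlkl, which passed in none of the other comparisons, was at 59.2% (LFC -0.75 ± 0.15, adjusted p = 0.0038).
Casp1 was at 60.1% (LFC -0.74 ± 0.07, adjusted p = 3.5e-05) and Ripk3 at 61.0% (-0.71 ± 0.13, adjusted p = 0.0026). Casp8 was at 64.4% (LFC -0.64 ± 0.17, adjusted p = 0.019), a call that was lost without water + PBS mouse 1 (adjusted p = 0.053). With the T cell markers as a covariate, of which 4 of 5 were lower in this comparison, neither Ripk3 (adjusted p = 0.14) nor Casp8 (0.2) passed, and with the B cell markers Casp8 did not (0.057). The median LFC of the 9 genes was -0.74 against -0.005.
These comparisons share groups, so their values are not independent of each other. Whether the effect of ZnSO4 differed between PBS and Dex mice was tested by the interaction term. None of the 9 genes passed, nor did any of the 15938 genes (0%, lowest adjusted p = 0.95), while 794 genes had an unadjusted p under 0.05. With DESeq2, 6 genes passed, none of them among the 9. The interaction estimates were -0.63 for Casp4 (95% interval -1.10 to -0.16, unadjusted p = 0.013) and -0.45 for Gsdmd (-0.87 to -0.04, unadjusted p = 0.034), the 2 of the 9 genes under that unadjusted threshold. The estimate for Gsdmd was -0.29 without ZnSO4 + Dex mouse 2 and -0.23 with the enterocyte markers as a covariate. For Zbp1 the estimate was -0.18 (-0.84 to 0.47). A different effect of ZnSO4 under Dex was therefore not shown for any of these genes.

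The 9 genes also varied among mice of the same group. Over the 12 libraries, with the group means removed, Casp8 and Gsdmd had a correlation of 0.88 with each other, and of 0.89 and 0.88 with the 5 enterocyte markers. In these libraries the mouse lowest in the markers, ZnSO4 + Dex mouse 2, was also lowest in both genes, and how far these values rest on that mouse was not tested.
Aim2 ran with the markers of immune cells, with correlations of 0.85 to the B cell markers, 0.82 to the T cell markers and 0.76 to those of macrophages and dendritic cells. This was not confined to immune cells, as Aim2 had a correlation of 0.73 with the endothelial and -0.7 with the Paneth cell markers. With the neutrophil markers, which were near 0, Aim2 had one of 0.62. Its highest values, 227 in water + PBS mouse 2 and 218 in ZnSO4 + PBS mouse 2, fell in the mice with the most B cell transcripts (472 and 358 CPM). Mlkl had a correlation of 0.89 with the fibroblast markers and of 0.85 with Zbp1. With the fibroblast markers Zbp1 had one of 0.74, Casp8 of -0.69 and Gsdmd of -0.66. With the enterocyte markers Zbp1 had one of -0.65 and Mlkl of -0.6, so these values are not particular to single genes. Casp1 and Casp4 had one of 0.66 with each other, and of 0.67 and 0.8 with the goblet cell markers. All these correlations describe 12 libraries in 4 groups that share their depth and tissue, and no test was made of them.
With the enterocyte markers as a covariate, an alternative chosen after Casp8 and Gsdmd were seen to follow them, both passed the test for ZnSO4 in PBS mice (LFC -0.58 and -0.64, adjusted p = 0.013 and 0.004). In ZnSO4 + Dex against water + Dex mice Casp8 then had an LFC of -0.43 (adjusted p = 0.035) and Gsdmd one of -0.86 (adjusted p = 6.0e-04). Without the covariate these LFCs were -0.37 and -0.49 in PBS mice and -0.53 and -0.94 in Dex mice. Over all tested genes, 767 passed with the covariate in PBS mice and 813 in Dex mice, against 742 and 696 without it.

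**Figure D4:**
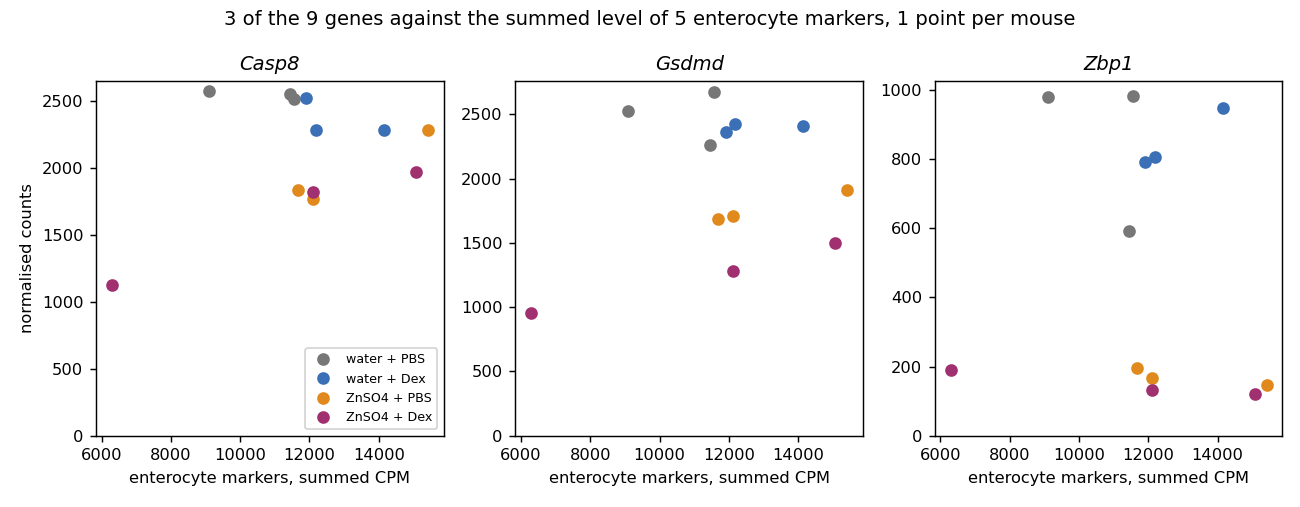
Normalised counts of Casp8, Gsdmd and Zbp1 (vertical axes, from 0) against the summed CPM of 5 enterocyte markers (horizontal axis), 1 point per mouse and 1 colour per group. The ZnSO4 + Dex mouse at 6294 CPM has the lowest Casp8 (1129) and Gsdmd (957), while the ZnSO4 mice have the lowest Zbp1 wherever they lie on that axis.

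The genes whose log2 CPM over the 12 libraries ran most like that of each of the 9 were taken from 14970 candidates. For Zbp1 they were Psme2 (Pearson r 0.988), an activator subunit of the proteasome, Psmb8 (0.985), a catalytic subunit of the immunoproteasome, and Upp1 (0.983), which cleaves uridine. All 3 fell with ZnSO4, with adjusted p of 0.003, 0.0017 and 6.5e-06, and none passed the test for Dex in water mice.
Gsdmd ran with Nmi (0.985) and Cap1 (0.979), Mlkl with Tapbpl (0.971), Gusb and Tlr2, and Ripk3 with Sec11c (0.957), Cad and Lgmn. Casp1 was closest to Tlr3 (0.973), the receptor for double-stranded RNA, followed by Gm8221 and Dapk2, and all 3 had an adjusted p of 0.0014 or less for Dex in water mice, as Casp1 passed there too.
Casp4 ran with Ralgds (0.973), Casp8 with Pfkp and Hspa12a (both 0.970), and Aim2 with Gmfg (0.967) and Il2rg, the common chain of several interleukin receptors. For Ripk1 the best value was 0.876 (Prmt9). These genes were picked as the highest of many, and the correlations include the differences between groups.

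Genes around the same pathways were examined as 4 lists. Their counts are read against the shares of all tested genes that fell and rose, which were 2.54% and 2.11% with ZnSO4 in PBS mice, 4.51% and 5.41% with Dex in water mice, 2.54% and 1.83% with ZnSO4 in Dex mice, and 7.08% and 6.65% with Dex in ZnSO4 mice. Of 23 regulators of necroptosis, which include the receptor, ubiquitin ligases, deubiquitinases and kinases that act on Ripk1, 1 fell with ZnSO4 in PBS mice and none rose (median LFC -0.10 against -0.013 for all tested genes). It was Tbk1, a kinase that phosphorylates Ripk1, from 1083 ± 34.4 to 825 ± 26.7 normalised counts (LFC -0.39, adjusted p = 0.047). With Dex in water mice 3 fell, namely Rnf31, the catalytic subunit of the linear ubiquitin ligase (LFC -0.62, adjusted p = 0.0016), Tlr3 (-0.59, 1.0e-03) and the phosphatase gene Ppm1b (-0.25, 0.046), and the median was -0.08 against -0.014.
ZnSO4 in Dex mice lowered Tbk1 (LFC -0.50), Adar (-0.41), which edits double-stranded RNA, and the deubiquitinase Cyld (-0.41), and none rose. Dex in ZnSO4 mice lowered 5 of the 23, among them Tlr3 (-0.67) and Fadd (-0.43), the adaptor that joins Casp8 to Ripk1. With both treatments 8 were lower than in water + PBS mice and none higher, where 11.9% of all tested genes were lower and 11.5% higher.

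Of 25 further genes of inflammasomes and pyroptosis, 24 were tested, as Gsdmc had at most 2 counts. With ZnSO4 in PBS mice only Il18 fell, the gene of a cytokine matured by Casp1, from 358 ± 70.0 to 140.2 ± 46.8 normalised counts (LFC -1.35, adjusted p = 0.0047). The median LFC was -0.08. With Dex in water mice 3 fell and 2 rose, with a median of -0.19.
Il18 was among the 2 that rose, to 609 ± 31.9 (LFC 0.77, adjusted p = 0.029), so that ZnSO4 and Dex had opposite effects on it. Naip1, a sensor of bacterial needle proteins, rose as well (LFC 0.67, adjusted p = 0.021). Il1b, the other main cytokine cleaved by Casp1, fell from 75.0 ± 26.9 to 5.10 ± 2.73 normalised counts (LFC -3.85, adjusted p = 1.6e-04), and Nlrp6, an inflammasome gene of the epithelium, fell from 2430.1 ± 225 to 1489 ± 108 (LFC -0.71, adjusted p = 7.7e-04).
ZnSO4 in Dex mice lowered Il18 (LFC -1.25) and Naip6 (-0.66) and raised none. Dex in ZnSO4 mice lowered 6 and raised 2, with Il18 again among those that rose (LFC 0.87, adjusted p = 0.015). Under both treatments 7 of the 24 were lower and 1 higher than in water + PBS mice, beside 11.9% and 11.5% of all tested genes. The largest falls were those of Il1b (-3.75), Il1a (-2.52) and Naip6 (-1.11). Il1a had few reads, with a mean of 12.4 normalised counts in water + PBS mice.

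Of 17 apoptosis genes, 3 fell with ZnSO4 in PBS mice and none rose. Among them were Apaf1 (LFC -0.74, adjusted p = 0.017) and Cycs (-0.51, 0.019), which form the apoptosome. The median LFC was 0.04. With Dex in water mice 2 fell and 4 rose, with a median of 0.07.
The largest rise was that of Pmaip1, a gene whose product opposes Mcl1, from 641 ± 32.1 to 3658 ± 525 normalised counts (LFC 2.51, adjusted p = 2.8e-04), and the survival genes Bcl2 (0.83, 0.048) and Bcl2l1 (0.77, 0.0013) rose too, while Bbc3 fell (-0.74, 0.042). ZnSO4 in Dex mice lowered 4, with Apaf1 (-0.92) and Cycs (-0.60) among them. Dex in ZnSO4 mice lowered 2 and raised 4, beside 7.08% and 6.65% of all tested genes. Under both treatments 6 were lower and 4 higher than in water + PBS mice, beside 11.9% and 11.5%.

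Of 18 interferon receptors and transcription factors, 17 were tested, as Ifng had at most 6 counts. With ZnSO4 in PBS mice 3 fell and none rose. These were Irf1 (from 3069 ± 459.6 to 1758 ± 94.4 normalised counts, LFC -0.80, adjusted p = 0.0015), Irf8 (-0.74, 0.014) and Stat2 (-0.42, 0.038). The median LFC was -0.15. With Dex in water mice 4 fell and none rose, with a median of -0.07.
Irf8 (LFC -1.34), Irf1 (-1.18) and Ifnlr1 (-0.95) were among these 4. Irf1 thus fell with either treatment, whereas Zbp1 passed the test for ZnSO4 and not for Dex. ZnSO4 in Dex mice lowered 3, among them Irf7 (-1.14, adjusted p = 0.0015), and Dex in ZnSO4 mice lowered 7. With both treatments 7 were lower and none higher, beside 11.9% and 11.5% of all tested genes. In that last comparison Irf8 had an LFC of -1.85 and Irf1 one of -1.81.

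**Figure D5:**
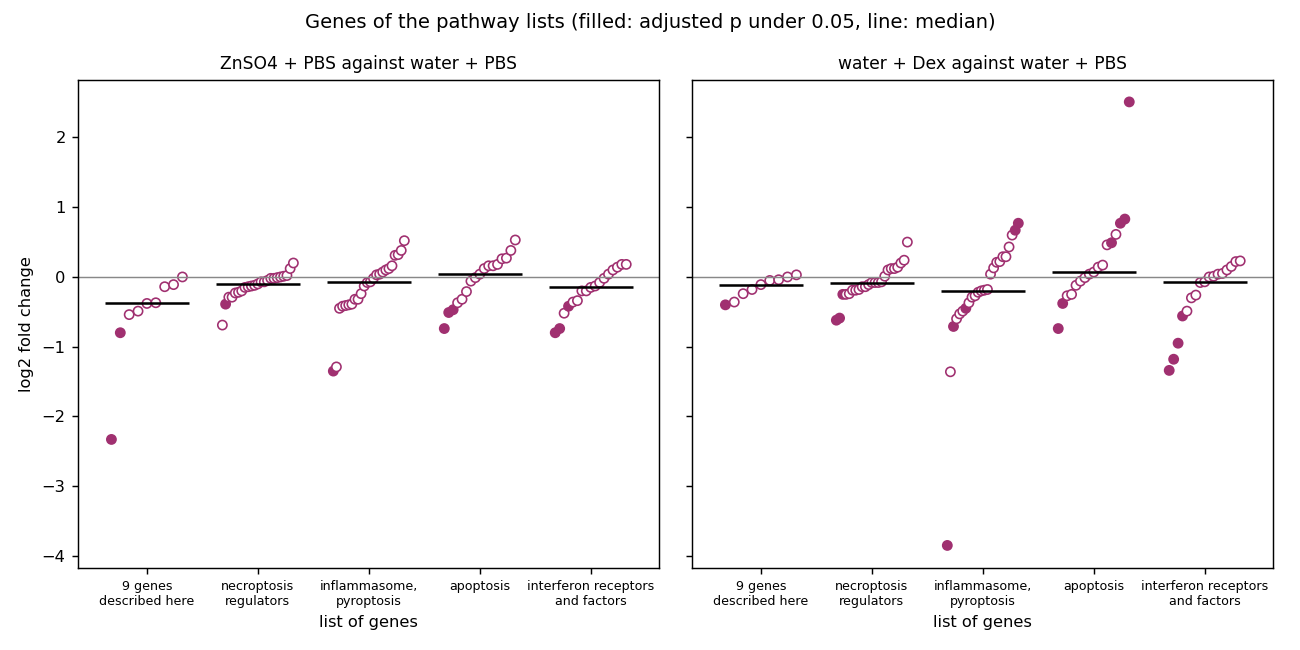
LFC (vertical axis, log2) of the 9 genes and of the tested genes of the 4 lists with ZnSO4 in PBS mice and with Dex in water mice, 1 point per gene, filled for an adjusted p under 0.05, with a line at the median of the list. With ZnSO4 no filled point lies above 0, and with Dex filled points lie on both sides for the inflammasome and the apoptosis genes.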

How the data were processed

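According to the study's methods and the submitters' processing notes, library preparation kept the strand and sequencing was single-end. Reads were trimmed with Trimmomatic, mapped to mm10 (GRCm38) with HISAT2 2.0.4 and counted per gene with featureCounts, without reads of more than 1 position. The annotation release and the strand setting are not given in the sources used here. The deposited table gives raw counts for 54838 genes, and 24517 of them had no read in any library. Totals of 10760132 to 11827487 reads per library limit the precision of weakly expressed genes, and intervals on counts would cover counting error only. Symbols were known for 54723 of the gene identifiers and positions for 54809. Levels per length used the merged exons of the GRCm38 annotation.

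From these counts, edgeR 4.0.16 (R 4.3.3) was used with its filter by group (filterByExpr, minimum count 10), after which 15938 genes were tested, with TMM factors and 1 quasi-likelihood model of 4 group means over all 12 libraries. P-values were adjusted by Benjamini-Hochberg over all tested genes. The 5 comparisons of groups and the interaction of ZnSO4 and Dex were tested, 6 in all. The study's additional cut-off was an LFC of 0.8 in size. Intervals of an LFC are 95% intervals from the same model. The test was also tried on simulated data, with results that are not reported here. The labels do not say that the mice were housed separately, so p-values measure the spread between these animals only.

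The 9 genes, the pathway lists and the markers were chosen with earlier results of these data known. All 9 genes were named in every comparison, of each pathway list up to 4 genes with the largest LFC among those that passed, and for each gene up to 3 genes of highest Pearson correlation with a mean CPM of at least 1. Some genes that these rules would name are not reported here. Alternatives were DESeq2 1.42.0, RLE and upper-quartile factors, 2 other filters, the replicate number as a block, a fit of only the groups compared, covariates for B cell, T cell and enterocyte markers (the last chosen after seeing the data) and leaving out each library. Pairs of libraries within a group differed by far more than sampling noise (chi-square per degree of freedom 7.63 to 41).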

Additional observations from a re-analysis of the deposited data

How the results depend on the processing

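Of 1179 values of single genes under the alternatives, 1081 kept their direction and their side of the threshold, and 50 changed sign, none of them past the threshold with or without the alternative. The fall of Zbp1 in all 3 comparisons of ZnSO4 mice with water mice passed under each alternative. For ZnSO4 in PBS mice, 2 genes passed, against 4 with DESeq2 (Mlkl and Gsdmd in addition), 4 with the enterocyte marker covariate (Casp8 and Gsdmd), 3 with the B cell covariate (Mlkl), only the groups compared or at least 10 counts in every library (Gsdmd), 1 with the cut-off of 0.8 and 2 to 5 with 1 library left out, the 5 without ZnSO4 + Dex mouse 2. For Dex in water mice, 1 passed, against 2 in a fit of only the groups compared (Casp4), 0 with the cut-off and 1 whichever library was left out. For ZnSO4 in Dex mice, 5 passed, against 3 with upper-quartile factors, 3 with the replicate block, 2 with the T cell marker covariate, 4 with only the groups compared or all genes with a count, 3 with the cut-off, 3 to 5 with 1 library left out, 6 with DESeq2 (Casp8 added, adjusted p = 0.046) and 7 with the enterocyte covariate (Mlkl, 0.044, and Casp8, 0.035). With the B cell covariate Mlkl (0.036) took the place of Ripk3 (0.061). For Dex in ZnSO4 mice, 3 passed, against 1 with the cut-off and 2 with the T cell covariate, the B cell covariate or only the groups compared (Gsdmd lost each time), and 2 to 3 with 1 library left out. For both treatments together 7 passed, against 3 with the cut-off, 5 with the T cell covariate (Ripk3 and Casp8 lost), 6 with the B cell covariate or only the groups compared (Casp8 lost) and 6 to 7 with 1 library left out. The number of all tested genes that passed moved too. For ZnSO4 in PBS mice it was 742, and 1060 with DESeq2, 767 with the enterocyte and 733 with the B cell covariate. For ZnSO4 in Dex mice it was 696, and 1018 with DESeq2, 813 with the enterocyte covariate, 774 with upper-quartile factors and 606 with the replicate block. With the T cell covariate it was 286 there, 1639 for Dex in ZnSO4 mice (2189 without it) and 1229 for both together (3719). The cause of these changes was not tested, apart from the cut-off, which removes genes by construction. The T cell markers differ between water and ZnSO4 mice, so that covariate is not separate from the ZnSO4 effect. With it, Ripk3, Casp1 and Gsdmd had LFCs of -0.44, -0.38 and -0.88 for ZnSO4 in Dex mice, against -0.53, -0.33 and -0.94. For both together Ripk3 and Casp8 had LFCs of -0.60 and -0.71, against -0.71 and -0.64. What the covariate takes away was not tested.

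Samples with the same number did not deviate together (median correlation of deviations -0.0557 over 18 pairs, lowest -0.359, against 0.0225 over 36 pairs with different numbers), so the numbers were not taken to pair the mice. The replicate block took Ripk3 (adjusted p = 0.083) and Casp1 (0.051) from the calls for ZnSO4 in Dex mice and changed no other call. All sign changes concerned values that did not pass. The LFC of Ripk1 was 0.00 for ZnSO4 in PBS mice and -8.1e-05 with the B cell or -0.07 with the enterocyte covariate, and with the latter -0.015 for Dex in water mice, 0.042 for Dex in ZnSO4 mice and 0.057 for the interaction. That of Zbp1 for Dex in water mice was -0.00, and 0.0097 with the T cell covariate, 0.1 with the enterocyte covariate and 0.007 with the replicate block. That of Aim2 with the B cell covariate was 0.17 for Dex in water and 0.0035 for Dex in ZnSO4 mice, and with the T cell covariate 0.34 for ZnSO4 in PBS, 0.15 for Dex in water, 0.46 for ZnSO4 in Dex and 0.27 for Dex in ZnSO4 mice, 0.61 for both together and 0.12 for the interaction. The interaction of Mlkl was 0.03, and -0.037 with the T cell and -0.15 with the enterocyte covariate, which gave 0.15 for Casp8. Leaving out 1 library gave LFCs of Ripk1 of -0.055 to 0.05 for ZnSO4 in PBS, -0.041 to 0.08 for Dex in water, -0.20 to 0.031 for ZnSO4 in Dex and -0.18 to 0.057 for Dex in ZnSO4 mice, -0.17 to 0.062 for both together and -0.21 to 0.026 for the interaction. It gave for Aim2 -0.37 to 0.1 (ZnSO4 in PBS), -0.15 to 0.17 (Dex in water), -0.38 to 0.0085 (Dex in ZnSO4) and -0.42 to 0.053 (interaction), for Zbp1 -0.21 to 0.11 (Dex in water) and -0.41 to 0.018 (interaction), for Gsdmd -0.11 to 0.003 (Dex in water), for Ripk3 -0.0098 to 0.17 (Dex in ZnSO4), and for the interaction of Mlkl -0.1 to 0.14 and of Casp8 -0.31 to 0.056.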
